A study of Homo sapiens with 6 samples.

Results

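PML, SP100, SP110, SP140L, DAXX and ATRX encode proteins of the PML nuclear bodies, and they were chosen by gene symbol from the 29845 genes listed with counts. All 6 genes were listed and all 6 passed the filter on low counts, which left 16555 genes for testing. RNA was measured in 6 libraries of A549, a cell line grown from a human lung carcinoma. Control cells (n = 3) were transfected with the empty plasmid pIRES-hrGFP-1a, and TFAM-OE cells (n = 3) with the same plasmid carrying human TFAM with a FLAG tag. TFAM is a DNA-packaging protein and transcription factor of mitochondria. Both groups therefore received plasmid DNA by transfection, and no untransfected cells are among the samples analysed here.

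PML nuclear bodies are small protein assemblies in the nucleus that are held together by the PML protein and its conjugation to SUMO, a small ubiquitin-like modifier. SP100 is the other founding component, and SP110, SP140 and SP140L are its relatives, which share chromatin-reading domains. DAXX is a chaperone of the histone variant H3.3 that is recruited to the bodies by SUMO-modified PML, and ATRX is the chromatin remodeller that works with DAXX. The bodies are known for restricting the genomes of DNA viruses, and transcription of PML and of the SP100 family is known to be raised by interferon.

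The 6 genes are described in 2 sets, by whether they passed the test. PML, SP100, SP110 and SP140L were lower in TFAM-OE than in control libraries, by between 2.05 and 3.11 times, whereas DAXX and ATRX did not pass the test. These 4 genes passed an adjusted p of 0.05 and also the 2-fold threshold in edgeR's quasi-likelihood test. Of all 16555 genes tested, 4.81% were lower at that adjusted p and 2.07% were also at least 2-fold lower. None of the 6 genes was higher at that adjusted p, as were 3.48% of all genes, or 0.447% when 2-fold was also required. The lower genes ranked 170 (SP110), 335 (SP100), 428 (PML) and 456 (SP140L) of 16555 from the most negative log2 fold change, and the median log2 fold change of all genes was -0.01.

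The SP100 family lies side by side on chromosome 2, and the stretches of its promoters that hold a shared run of bases are printed here to show that run and the bases beside it. They were picked for the run and do not show how alike the whole promoters are. Promoter windows of 300 bases came from RefSeq (GRCh38.p14), and 3 of the 6 genes had an entry: SP110 and SP100 with 2 windows each and SP140L with 1. PML, DAXX and ATRX had no entry. The run of 16 bases was taken, after the windows had been seen, as the longest present in every window of SP110 and SP140L. It is in capitals in each line, which reads 5′ to 3′ on the strand named.
SP110, first window, chr2:230225719-230225748, minus strand: caaagagGAAAAGAAAAGTGAAAttgccta
SP110, second window, chr2:230220013-230220042, plus strand: cttccgaGAAAAGAAAAGTGAAAgttttcg
SP140L, chr2:230327099-230327128, minus strand: aaatgggGAAAAGAAAAGTGAAAgtattta
SP100, first window, chr2:230416130-230416159, minus strand: aaatgggGAAAAGAGAAGTGAAAgtattta

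On either strand, the exact run was in 4 of 35116 promoter windows (0.0114%), namely both SP110 windows, the SP140L window and the window of SP140, which shares 199 bases with the first SP110 window. SP100 differs from it by A8G, counted from the first capital. With base 8 left free to admit SP100, the run was in 5 windows (0.0142%). Its presence in the SP110 and SP140L windows was fixed by how it was chosen, and the SP140 match is the same stretch as that of SP110. These shares therefore do not test whether the run is unusual. The run lay 90 and 36 bases before the 2 SP110 starts, 72 bases before that of SP140L and 49 bases before that of SP100. Annotated exons overlap the printed stretches of SP110 and SP100 but not that of SP140L. The SP140L window and the first SP100 window were 92.3% identical over 272 aligned bases, so these 2 matches are not independent of each other. In the same alignment, global with free ends, the SP110 windows were not alike in this way. The first SP110 window aligned over only 52 bases with SP140L (65.4% identical) and over 14 bases with the first window of SP100. The core of the interferon-stimulated response element (GAAA, any 2 bases, GAAA) was in 0 of these 5 windows, against 3.57% of all windows. Only that spacing was sought. The exact run itself holds GAAA, 3 bases and GAAA, a spacing for which no share was computed. A gamma-activated site (TTC, any 3 bases, GAA) was in 1 of 5, the second window of SP110, against 7.66% of all windows. Motifs were sought on both strands, and a match is a description of the letters only.

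The TFAM gene was measured first, as the check of the labels. Control replicates 1, 2 and 3 held 2555, 1878 and 2663 reads of it, and TFAM-OE replicates 1, 2 and 3 held 2291, 2808 and 2492. Scaled to library size by TMM (CPM), TFAM was at 73.0 ± 2.97 in the control and at 77.4 ± 5.58 in TFAM-OE (SD, n = 3 each), with overlap. TFAM differed by 0.08 on the log2 scale (standard error, SE, 0.096, adjusted p = 0.623, edgeR), so the mRNA counted on it did not separate the groups, and the second group is called by its label. The paper reports the overexpressed protein by western blot against the FLAG tag, which these RNA counts do not measure. The libraries held between 26650854 and 37321956 counted reads. The number of genes called depended on single libraries. At an adjusted p of 0.05, 796 genes were lower and 576 higher, against 1782 and 1416 without TFAM-OE replicate 3, 253 and 93 without control replicate 1, 238 and 67 without control replicate 2, and 263 and 87 without TFAM-OE replicate 2. Of markers of A549, the keratin genes KRT8 and KRT18 were abundant at 1864 and 1165 CPM in the control, whereas the epithelial adhesion genes EPCAM and CDH1 were at 0.455 and 4.37 CPM. The 7 epithelial markers summed to between 5985 and 6083 CPM in the control and to between 5449 and 6626 CPM in TFAM-OE, and 0 of the 7 passed the test. Over all genes tested, 4.81% passed as lower and 3.48% as higher. The 4 leukocyte markers listed summed to between 5.57 and 6.87 CPM in the control and to between 7.22 and 8.20 CPM in TFAM-OE, with PTPRC (CD45) at 0 or 1 read. CD14 was the only leukocyte marker to pass and rose by 1.10 on the log2 scale (adjusted p = 0.00565, edgeR). The 4 fibroblast markers summed to between 2.92 and 5.04 CPM over all libraries, and the single one tested did not pass.

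PML, the scaffold of the bodies, lies on the plus strand of chromosome 15 (chr15:73994673-74047827, GRCh38). The control libraries held 2908, 2412 and 3268 reads of PML and the TFAM-OE libraries 1623, 1484 and 1079. Its deposited FPKM, a level corrected for transcript length and library size, was 8.73, 8.77 and 8.53 in the control and 4.68, 3.9 and 3.67 in TFAM-OE. Every TFAM-OE library was below every control library, and the spread was wider in TFAM-OE. PML fell from 88.6 ± 1.82 to 42.6 ± 7.63 CPM (SD, n = 3 each), a log2 difference of -1.06 with an SE of 0.13 (adjusted p = 0.0016, edgeR), or 2.08 times lower. The 95% interval of the log2 fold change ran from -1.34 to -0.77. A long noncoding RNA on the opposite strand shares 586 exonic bases with PML and is not listed in the counts used here. In RNA of whole cultures, fewer cells that express a gene and less RNA of it per cell cannot be told apart.

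SP100 (chr2:230415942-230545606, plus strand) encodes the nuclear antigen that marks the bodies together with PML. Control libraries held 2490, 2021 and 2654 reads of SP100, and TFAM-OE libraries 1020, 1255 and 948. Its FPKM was 11.98, 11.77 and 11.1 in the control and 4.71, 5.28 and 5.16 in TFAM-OE. The groups were well apart, and the libraries within each group lay close together. SP100 fell from 74.0 ± 1.54 to 32.7 ± 1.59 CPM (SD, n = 3 each), a log2 difference of -1.18 (SE 0.094, adjusted p = 9.92e-05, edgeR). An annotated pseudogene on the same strand, HMGB1P3, shares 544 exonic bases with SP100 and is not listed in the counts used here.

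SP110 (chr2:230165186-230225729, minus strand) encodes a nuclear body protein of leukocytes and other cells that acts as a nuclear receptor coactivator. Its reads were 1257, 1354 and 1449 in the control and 461, 507 and 376 in TFAM-OE. Its FPKM was 11.59, 15.11 and 11.61 in the control and 4.08, 4.09 and 3.92 in TFAM-OE. Control replicate 2 was the highest library and the 3 TFAM-OE libraries were nearly level. SP110 had the most negative log2 fold change of the 6 genes, -1.64 (SE 0.14, adjusted p = 0.000139, edgeR), from 42.5 ± 7.06 to 13.6 ± 1.00 CPM (SD, n = 3 each), or 3.11 times lower. SP110 shares 170 exonic bases with SP140 and 1898 with a long noncoding RNA, both on the opposite strand. Whether the counting used strand is not stated, and reads of these genes may not have been told apart.

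SP140L (chr2:230327184-230403732, plus strand) is a close relative of SP140 and the least abundant of the lower genes. Its reads were 514, 390 and 554 in the control and 214, 265 and 239 in TFAM-OE. Its FPKM was 3.17, 2.91 and 2.97 in the control and 1.27, 1.43 and 1.67 in TFAM-OE. The groups did not overlap. SP140L fell from 14.998 ± 0.383 to 7.32 ± 0.626 CPM (SD, n = 3 each), a log2 difference of -1.03 (SE 0.13, adjusted p = 0.00164, edgeR). The libraries did not overlap for 4 of the 6 genes, all with TFAM-OE below control. Of all genes tested, 15.8% were lower and 15.8% higher without overlap.

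DAXX (chr6:33318558-33323016, minus strand) was counted at 1814, 1622 and 2200 reads in control libraries and at 2016, 2150 and 1648 in TFAM-OE libraries. Its FPKM was 18.17, 19.66 and 19.15 in the control and 19.38, 18.83 and 18.67 in TFAM-OE, and the groups overlapped throughout. The means were 58.2 ± 3.65 and 59.1 ± 4.17 CPM (SD, n = 3 each), a log2 difference of 0.02 (SE 0.10, adjusted p = 0.915, edgeR) that turned slightly negative when scaled by library size alone or fitted on FPKM. The 95% interval of the fold change ran from 0.869 to 1.19, so a change of DAXX of the size seen for PML lies outside it. Another annotated protein-coding gene on the same strand shares 441 exonic bases with DAXX and is not listed in the counts used here.

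ATRX (chrX:77504880-77786233, minus strand) was counted at 1267, 984 and 990 reads in control libraries and at 535, 955 and 1047 in TFAM-OE libraries. Its FPKM was 2.96, 2.78 and 2.01 in the control and 1.2, 1.95 and 2.76 in TFAM-OE. TFAM-OE replicate 1 was the lowest library and TFAM-OE replicate 3 lay among the control libraries. The means were 33.8 ± 5.93 and 26.0 ± 9.06 CPM (SD, n = 3 each), a log2 difference of -0.38 (SE 0.23, 95% interval -0.90 to 0.14, adjusted p = 0.340, edgeR). Without TFAM-OE replicate 3, the log2 fold change of ATRX was -0.64 and passed the threshold (adjusted p = 0.0275, edgeR). Without TFAM-OE replicate 1 it was -0.15 (adjusted p = 0.616, edgeR), so the value of ATRX rested on which TFAM-OE library was used.

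**Figure D1:**
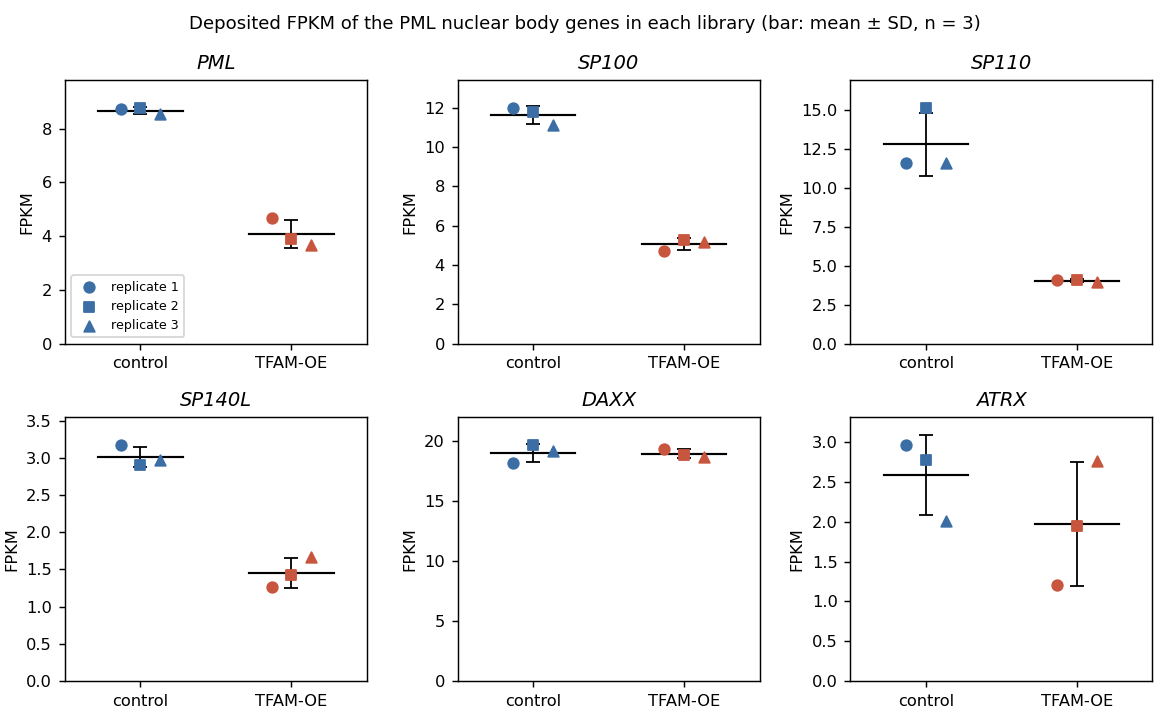
Deposited FPKM (vertical axis, from 0) of the 6 genes in each control and TFAM-OE library, with 1 point per library, its shape giving the replicate number, and bars for the mean ± SD (n = 3). PML, SP100, SP110 and SP140L were lower in every TFAM-OE library, as for SP100 with 4.71 to 5.28 against 11.1 to 11.98, whereas DAXX and ATRX overlapped.

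FPKM corrects for gene length, and the levels were ordered between genes on that scale. The order depends on the lengths used. In control replicate 1, the deposited values imply 10271 bases for PML and 3078 bases for DAXX. In the control, DAXX was the highest at a mean of 19.0 FPKM, followed by SP110 (12.8), SP100 (11.6), PML (8.68), SP140L (3.02) and ATRX (2.58). The ranges of SP110 and SP100 overlapped, as did those of SP140L and ATRX, and the other neighbours in this order were apart. In TFAM-OE, DAXX stayed the highest at 19.0 FPKM, followed by SP100 (5.05), PML (4.08), SP110 (4.03), ATRX (1.97) and SP140L (1.46). Here the ranges of PML and SP110 overlapped, as did those of ATRX and SP140L. DAXX mean FPKM was thus above PML mean FPKM in both groups, although every control library held more reads of PML than of DAXX.

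Ratios of reads between these genes within a library need no scaling between libraries, and 15 pairs were compared. An exact permutation test, two-sided, of 3 against 3 libraries cannot give a p below 0.1, so no pair could pass 0.05. PML had 1.60, 1.49 and 1.49 reads per DAXX read in the control libraries and 0.805, 0.690 and 0.655 in the TFAM-OE libraries. SP110 had 0.693, 0.835 and 0.659 reads per DAXX read in the control and 0.229, 0.236 and 0.228 in TFAM-OE. The log2 ratio to DAXX was lower in TFAM-OE without overlap for PML (-1.09), SP100 (-1.20), SP110 (-1.65) and SP140L (-1.06), each with an exact permutation p = 0.1 and 0.15 after Benjamini-Hochberg adjustment over the 15 pairs. Among the lower genes, the groups were also apart for PML per SP110 (log2 ratio change 0.56), SP100 per SP110 (0.45), SP110 per SP140L (-0.59) and SP100 per SP140L (-0.14), each with the same exact p. SP110 was lower relative to each of its 3 partners in TFAM-OE than in the control. SP100 was lower relative to SP140L only narrowly, with 4.77 reads per SP140L read in TFAM-OE replicate 1 against 4.79 in control replicate 3. PML per SP100 (0.11, exact permutation p = 0.9) and PML per SP140L (-0.04, exact permutation p = 0.8) overlapped between the groups. The groups were apart for SP100 per ATRX (-0.75) and SP110 per ATRX (-1.20), each with an exact permutation p = 0.1. They overlapped for PML per ATRX (-0.64, exact permutation p = 0.3) and SP140L per ATRX (-0.61, exact permutation p = 0.2). DAXX per ATRX (0.45, exact permutation p = 0.4) overlapped too. These ratios therefore do not set ATRX apart from all of the lower genes. In all, 10 pairs were apart and 5 overlapped.

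**Figure D2:**
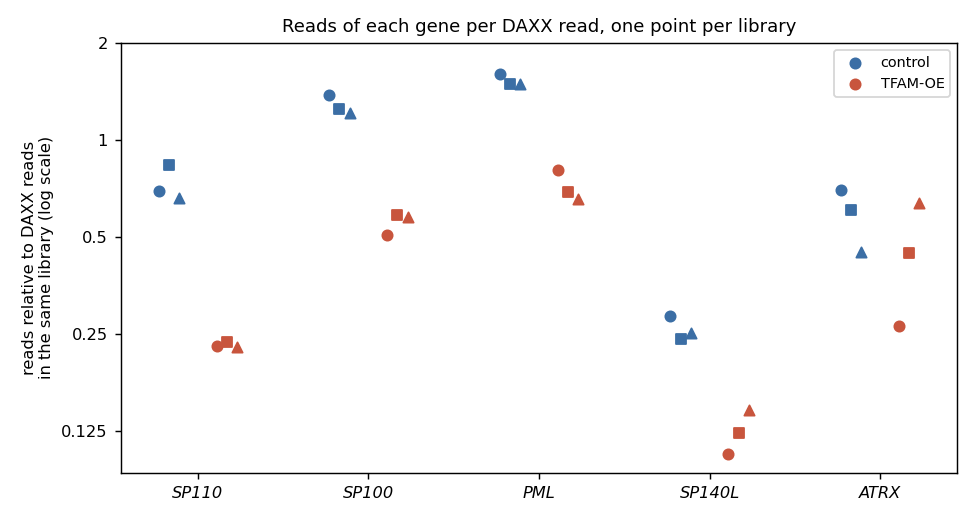
Reads of SP110, SP100, PML, SP140L and ATRX divided by the DAXX reads of the same library (vertical axis, log scale), with 1 point per control or TFAM-OE library. The groups were apart for the first 4 genes, as for SP110 with 0.228 to 0.236 against 0.659 to 0.835, and overlapped for ATRX.

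SP140, the leukocyte member of the SP100 family, was near the limit of detection in these epithelial cells. Its reads numbered 13, 22 and 28 in control libraries and 3, 12 and 8 in TFAM-OE libraries. The log2 fold change of SP140 was -1.47 (SE 0.47) and did not pass (adjusted p = 0.0824, edgeR), and of the settings tried it passed only when all genes with a read were tested or with edgeR's exact test. The starts of SP140 and SP110 lie 100 bases apart on opposite strands. In the family, 3 of 4 genes were lower at an adjusted p of 0.05 and 0 were higher, against 4.81% and 3.48% of all genes tested. The median log2 fold change of the family was -1.32 against -0.01 over all genes. These are the 3 genes described above with SP140 added, so the count is not separate evidence.

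The genes that surround the 4 SP genes on chromosome 2 were examined for the same difference. Of the 16 nearest protein-coding genes, 8 on each side, 12 were tested, of which 2 were lower and 0 higher, with a median log2 fold change of -0.21. Of all genes tested, 4.81% were lower and 3.48% higher. The nearest tested gene on either side did not pass, with SLC16A14 at -0.23 (adjusted p = 0.687, edgeR) and CAB39 at -0.19 (adjusted p = 0.405, edgeR). The 2 lower neighbours were PID1 (-0.85, adjusted p = 0.0112, edgeR) and DNER (-0.65, adjusted p = 0.0296, edgeR), which lie farther from the SP genes than SLC16A14. Around PML, 9 of 16 neighbours were tested, and STRA6, a receptor for retinol-binding protein, was the only one to pass (0.49, adjusted p = 0.0216, edgeR). STOML1, the nearest neighbour of PML, lies on the minus strand and starts beside the start of PML, and had a log2 fold change of -0.10 (adjusted p = 0.698, edgeR). The calls of PID1, DNER and STRA6 were each lost without control replicate 1 (adjusted p = 0.0665, 0.136 and 0.102, edgeR) or TFAM-OE replicate 2 (adjusted p = 0.0606, 0.151 and 0.095, edgeR). Those of DNER and STRA6 were also lost without control replicate 2 (adjusted p = 0.103 and 0.104, edgeR).

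**Figure D3:**
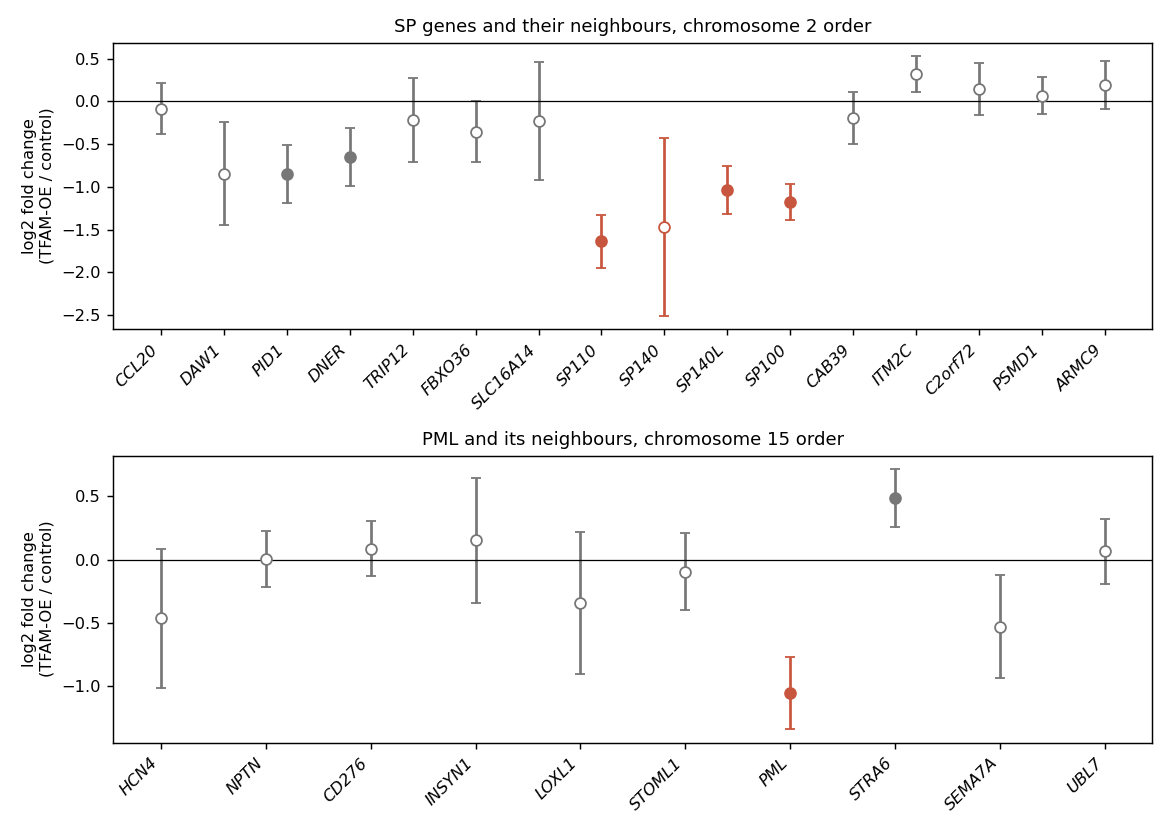
Log2 fold change of TFAM-OE over control with its 95% interval (vertical axis) for the SP genes and PML (red) and their tested neighbours (grey), in chromosome order without distances, where filled points passed an adjusted p of 0.05. SP110 (-1.64), SP140L (-1.03) and SP100 (-1.18) lay below SLC16A14 (-0.23) and CAB39 (-0.19).

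The machinery that builds the bodies was followed in 3 further lists. Over all genes tested, 4.81% were lower and 3.48% higher at an adjusted p of 0.05. SUMO and its enzymes conjugate, remove and read the modification on PML and SP100. None of the 17 genes listed, from SUMO2 and SUMO3 to the E1, E2 and E3 enzymes and the SENP proteases, passed in either direction, and their log2 fold changes lay between -0.29 and 0.44 with a median of 0.01. Without TFAM-OE replicate 3, 2 of these were lower and 2 higher, where 1782 of all 16555 genes were lower and 1416 higher. Among H3.3 and its chaperones, which include DAXX and ATRX, 0 of 9 were lower and 1 was higher, with a median of -0.13. Without TFAM-OE replicate 3, 1 was lower, which was ATRX. The higher gene was H3-3A, a gene of histone H3.3, with 8063, 6700 and 10689 reads in the control and 12074, 13437 and 10540 in TFAM-OE. It rose by 0.49 on the log2 scale (adjusted p = 0.02, edgeR), a call that was lost without control replicate 1 (adjusted p = 0.1, edgeR), without control replicate 2 (adjusted p = 0.113, edgeR) or without TFAM-OE replicate 2 (adjusted p = 0.11, edgeR).

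Of 15 other proteins that reside in or pass through the bodies, such as HIPK2, MORC3, BLM, USP7 and NBN, 1 was lower and 0 were higher, with a median log2 fold change of -0.10. The shares over all genes tested were 4.81% lower and 3.48% higher. The lower gene was ISG20, an interferon-induced exonuclease. ISG20 was counted at 1612, 1512 and 1759 reads in control libraries and at 504, 571 and 416 in TFAM-OE libraries, without overlap. It fell by 1.75 on the log2 scale (SE 0.12, adjusted p = 3.29e-05, edgeR). TFAM-OE replicate 1 was the lowest library of its group for 12 of these 15 genes (80.0%), as for 38.0% of all genes tested. Without TFAM-OE replicate 3, 5 of the 15 were lower and 0 higher, where 1782 of all 16555 genes were lower and 1416 higher. Without TFAM-OE replicate 1, 1 of the 15 was lower and 1 higher, where 979 of all 16555 genes were lower and 739 higher. The part of these libraries in the values of the list was not tested.

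The genes through which interferon acts were listed because the SP100 family and PML are known targets of it. Of the 7 tested of 8, 3 were lower and 0 higher, against 4.81% and 3.48% of all genes, with a median log2 fold change of -0.23. IFNB1, which encodes interferon beta, was counted at 174, 121 and 132 reads in control libraries and at 12, 5 and 5 in TFAM-OE libraries, a fall of 4.28 on the log2 scale (adjusted p = 7.22e-05, edgeR). IFNB1 was lower in every TFAM-OE library than in any control library. STAT2, a transcription factor activated by interferon receptors, fell by 1.02 (adjusted p = 0.00552, edgeR) and IRF1, an interferon-induced transcription factor, fell by 0.61 (adjusted p = 0.024, edgeR). The call of IRF1 was lost without control replicate 1, 2 or 3 or TFAM-OE replicate 2 (adjusted p between 0.0541 and 0.116, edgeR). The receptor genes IFNAR1 and IFNAR2 and the kinase genes JAK1 and TYK2 did not pass, with log2 fold changes between -0.23 and 0.37. IRF9 had between 0 and 5 reads in a library and did not pass the filter, and whether the counting left out reads of it was not tested, so its level is uncertain here.

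**Figure D4:**
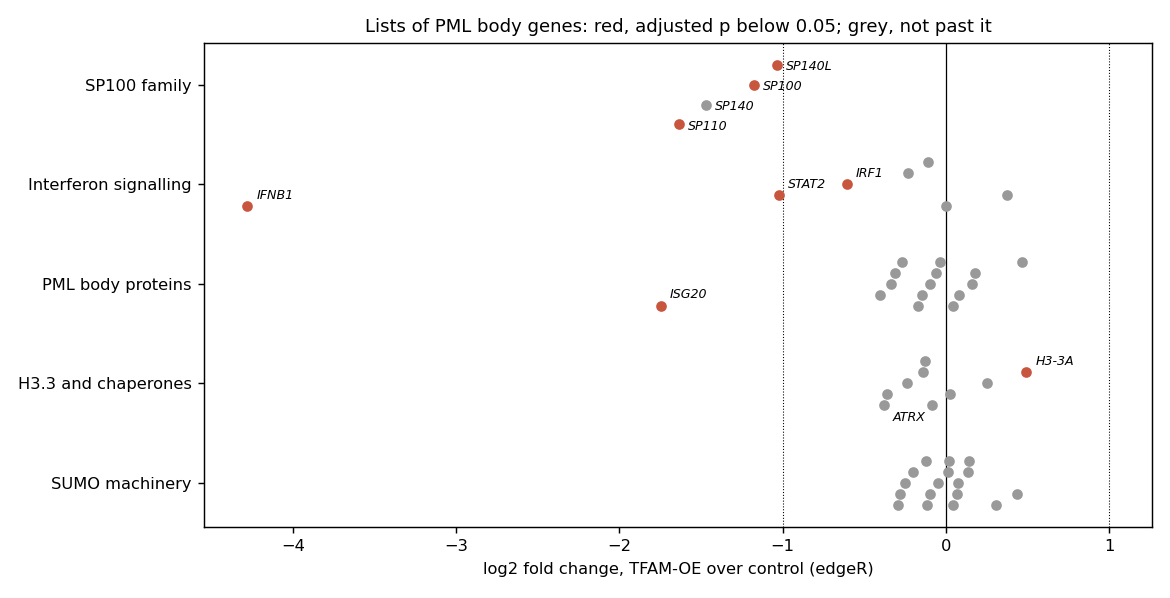
Log2 fold change of TFAM-OE over control (horizontal axis, dotted lines at 2-fold) for each tested gene of 5 lists, with genes past an adjusted p of 0.05 in red and the height within a list used only to separate points. SP110 (-1.64), ISG20 (-1.75) and IFNB1 (-4.28) were far below 0, whereas the 17 genes of the SUMO machinery lay between -0.29 and 0.44.

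Genes whose level over the 6 libraries was most like that of the lower genes were named by Pearson's r of log2 CPM among 13429 protein-coding genes. All 6 libraries fall into the same 2 groups, so a gene lower in TFAM-OE will have a high r with another, and r is given as a description. For PML these were SLCO3A1 (r = 0.9996), IFI6 (0.999) and ID4 (0.9987). For SP100 they were IFIH1 (0.9981), SAMD9L (0.9978) and NT5C3A (0.9977), and for SP110 they were IFNL2 (0.9986), IFITM2 (0.9981) and ISG20 (0.997). IFI6, IFIH1, SAMD9L, IFITM2 and ISG20 are known interferon-induced genes and IFNL2 encodes an interferon, whereas SLCO3A1, a transporter gene, had a log2 fold change of only -0.19. Among themselves, SP100 had r = 0.9868 with SP110 and 0.985 with SP140L, which ranked 48 and 63 of 13429 for SP100. PML had r = 0.9614 with SP100, which ranked 239 of 13429 for PML. Many genes outside the 6 were therefore more like SP100 and PML than these were. DAXX had r = 0.08 with PML and -0.13 with SP100, and ATRX had 0.31 and 0.54.

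The differences of the 6 genes were recomputed with other tools, scalings and filters, with the replicate number as a block and with each library left out. PML, SP100, SP110 and SP140L passed an adjusted p of 0.05 in all 11 other settings and without each of the 6 libraries. The number at least 2-fold lower was 2 with limma on log2(FPKM + 1), a scale that understates the change of low genes, and 3 or 4 with a library left out. Under those 11 settings the log2 fold change of PML lay between -1.09 and -0.93, that of SP100 between -1.20 and -1.06, that of SP110 between -1.66 and -1.44 and that of SP140L between -1.05 and -0.71.

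**Figure D5:**
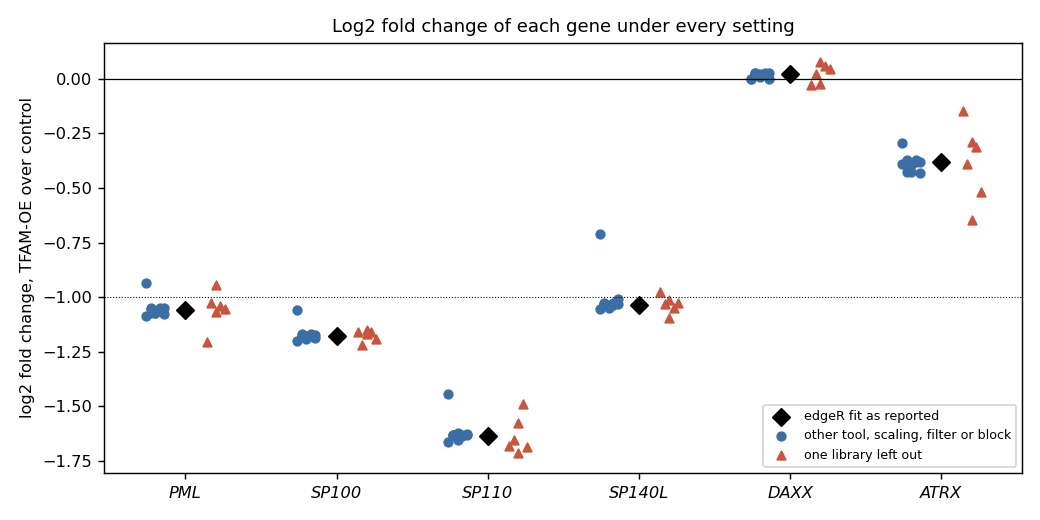
Log2 fold change of TFAM-OE over control (vertical axis, dotted line at 2-fold lower) of each of the 6 genes in the edgeR fit (black), under 11 other settings (blue) and with 1 library left out (red). SP110 stayed between -1.72 and -1.44 and DAXX between -0.03 and 0.08, whereas ATRX spread from -0.64 to -0.15 as libraries were left out.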

How the data were processed

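RNA of A549 cells was sequenced from poly(A) libraries, 3 control and 3 TFAM-OE, described as biological replicates. The authors trimmed the reads with the FASTX-Toolkit, aligned them to GRCh38 with TopHat2 and counted uniquely mapped reads per gene. They deposited these counts, and FPKM values with 2 decimals, for each library. Which program and annotation were used for counting, and whether strand was, is not given in the sources used here. Overlapping genes could therefore share reads. Value columns not used numbered 0.

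Libraries were grouped by their labels. Genes kept by filterByExpr were scaled by TMM and tested two-sided, without pairing, by the quasi-likelihood method of edgeR (4.0.16, R 4.3.3), and p-values were adjusted by Benjamini-Hochberg over all 16555 genes. The study used edgeR at an FDR of 0.05 and 2-fold and names no filter. Intervals are 95%. The test was checked on simulated data. CPM values, means and SDs were computed after TMM scaling, and read ratios from the counts with scipy (1.17.1). Reads carry no molecular identifiers, and with 3 libraries per group the spread between libraries limits the precision. Coordinates are from GENCODE version 44 (GRCh38). Promoter windows are from RefSeq. Figures were drawn with matplotlib (3.10.9).

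The named genes are the 6 members, TFAM, every list gene and neighbour past an adjusted p of 0.05, and the 3 genes most like PML, SP100 and SP110. Other list genes and the nearest neighbours were named as examples after their values were seen. Some genes of the lists are not reported here and were left out of every list count. The members and lists were chosen with earlier results of these data known. Alternatives were DESeq2 (1.42.0), limma-voom and limma-trend (3.58.1), edgeR's exact test, 3 scalings, 2 filters, a replicate block and each library left out.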

Additional observations from a re-analysis of the deposited data

How the results depend on the processing

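PML, SP100, SP110 and SP140L stayed past an adjusted p of 0.05 in all 11 other settings and without each library, and 4 or 5 of the 6 genes were lower with a library left out, the fifth being ATRX without TFAM-OE replicate 3 (-0.64). ATRX lay between -0.64 and -0.15 over the left-out libraries. The log2 fold change of DAXX, not called in any setting, was -0.0015 with library size alone and -0.0019 with limma-trend on log2(FPKM + 0.1) or log2(FPKM + 1), and between -0.029 and 0.077 with a library left out. The log2 ratio change of PML per SP100 lay between -0.045 and 0.196 with a library left out, and that of PML per SP140L between -0.233 and 0.141. The cause of these moves was not tested.

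Of all 16555 genes tested, 342 were at least 2-fold lower at an adjusted p of 0.05. This was 528 with all genes that have a read, 108 on log2(FPKM + 1), 217 with the replicate block, 796 by the adjusted p alone and 182 to 425 with a library left out. With all genes that have a read, counts are out of 29845, and with FPKM above 1 they are out of 12778. Those counts do not compare directly with counts out of 16555. The 74 at least 2-fold higher became 129 with all genes, 43 with FPKM above 1, 44 on log2(FPKM + 0.1), 11 on log2(FPKM + 1), 38 with the block, 576 by the adjusted p alone and 21 to 113 with a library left out. The 796 lower genes without a fold threshold became 1485 with all genes, 1236 with the exact test, 285 with the block and 238 to 1782 with a library left out. The 576 higher became 1034 with all genes, 932 with DESeq2, 980 with the exact test, 74 with the block and 67 to 1416 with a library left out. On log2(FPKM + 1), 2 of the 6 genes were at least 2-fold lower.

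Over all genes, the other settings called 285 (replicate block) to 1485 (all 29845 genes with a read) lower and 74 to 1034 higher. With a library left out, 238 to 1782 of 16555 were lower and 67 to 1416 higher. The list counts below moved with these and are not read as a result about the lists. For the SUMO list, 1 gene was higher with all genes that have a read, the exact test, log2(FPKM + 0.1) and log2(FPKM + 1), and 0 to 2 were lower and 0 to 2 higher with a library left out. For H3.3 and its chaperones, 0 were higher with the replicate block, and 0 to 1 were lower or higher with a library left out. For the PML body proteins, 1 was higher with all genes, and 1 to 5 were lower and 0 to 1 higher with a library left out. For interferon signalling, 1 was lower with the replicate block, 1 was higher with all genes, and 2 to 4 were lower and 0 to 1 higher with a library left out. For the neighbours of the SP genes, 1 was lower with the block, 1 was higher with library size alone, DESeq2, the exact test, log2(FPKM + 0.1) and log2(FPKM + 1), and 0 to 3 were lower and 0 to 1 higher with a library left out. For the neighbours of PML, 0 were higher with log2(FPKM + 1) and with the block, and 0 to 1 with a library left out.

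The replicate numbers are not shown to pair the libraries. Deviations from the group means correlated at r = -0.225, 0.00767 and -0.266 between control and TFAM-OE libraries with the same number. With the replicate block the log2 fold change was -1.07 for PML (adjusted p = 0.016, edgeR) and the 4 lower genes still passed. STAT2 (adjusted p = 0.0503, edgeR), IRF1 (0.0852), H3-3A (0.109), DNER (0.0983) and STRA6 (0.101) did not pass with the block, and kept their direction.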
